A study of Mus musculus with 6 samples.

Results

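The myeloid lineage is the blood cell branch that gives macrophages, microglia, monocytes and granulocytes, and 10 of its genes were followed through 6 RNA-seq libraries of embryonic mouse cortex cells. They were Spi1, Csf1r, Ptprc, Tyrobp, Fcer1g, Cd68, Lyz2, Ncf4, Spp1 and Ccl9. All 10 were found by symbol among the 32285 genes of the table, with 1 entry each. They were chosen by measured values of the same comparison, namely the difference between inhibitor-treated and control libraries. That difference is therefore described for each of the 10 genes without a test and is not evidence of its own.

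Neocortices of wild-type embryos (E10.5) were dissociated to single cells and placed in culture. GSK2837808A, an inhibitor of lactate dehydrogenase, the enzyme that interconverts pyruvate and lactate, was added after about 2 h to the treated cultures (GSK), and the same volume of its solvent DMSO to the controls. The labels give an inhibitor concentration of 100 mM, which was not verified. After about 24 h some 1000 living cells (DAPI negative) carrying CD133, a surface protein of neural progenitors, were sorted for each sample, and libraries were made with a modified Smart-seq2 protocol. The labels call the sorted cells radial glial progenitors, the neural stem cells of the embryonic cortex. Each group held 3 libraries, and nothing in the labels says that they came from separate embryos or cultures. The p-values below therefore measure only the spread between these libraries, which may be technical.

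Macrophages reach the embryonic brain from the yolk sac at about this stage and become the microglia and the border macrophages of the brain. The transcription factor PU.1, the product of Spi1, drives their formation, and the receptor Csf1r carries the survival signal that they depend on. Phagocytes of this lineage take up dying cells, digest them in lysosomes, and release chemokines and matrix proteins such as osteopontin, the product of Spp1.

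The libraries held 7187089 to 10224348 reads. Values are normalised reads, in which 1 read was worth 0.859 to 1.14, so a value near 1 is a single read. The label of the sorted cells was borne out in part by their marker genes. All 12 radial glial genes listed, such as Pax6 and Nes, were detected in every library, with a summed level of 21963 to 23041 in the DMSO and 12368 to 15387 in the GSK libraries. Genes of connective tissue and pericytes, such as Col3a1, were detected too, with sums of 28666 to 36357 in DMSO and 17954 to 27311 in GSK libraries. DMSO 3 stood apart from the other controls. Its genes of red blood cells summed to 2509 against 15128 in DMSO 1 and 21157 in DMSO 2, and its neuronal genes to 8151 against 13622 and 16175. Of the 10 myeloid genes 9 were highest of the controls in DMSO 3. Over the 15073 genes tested below, 4946 were highest of the controls in DMSO 3. The log2 difference of each of the 10 genes is therefore also given without it, as are the counts and medians of the gene lists where its absence changes them.

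**Figure D1:**
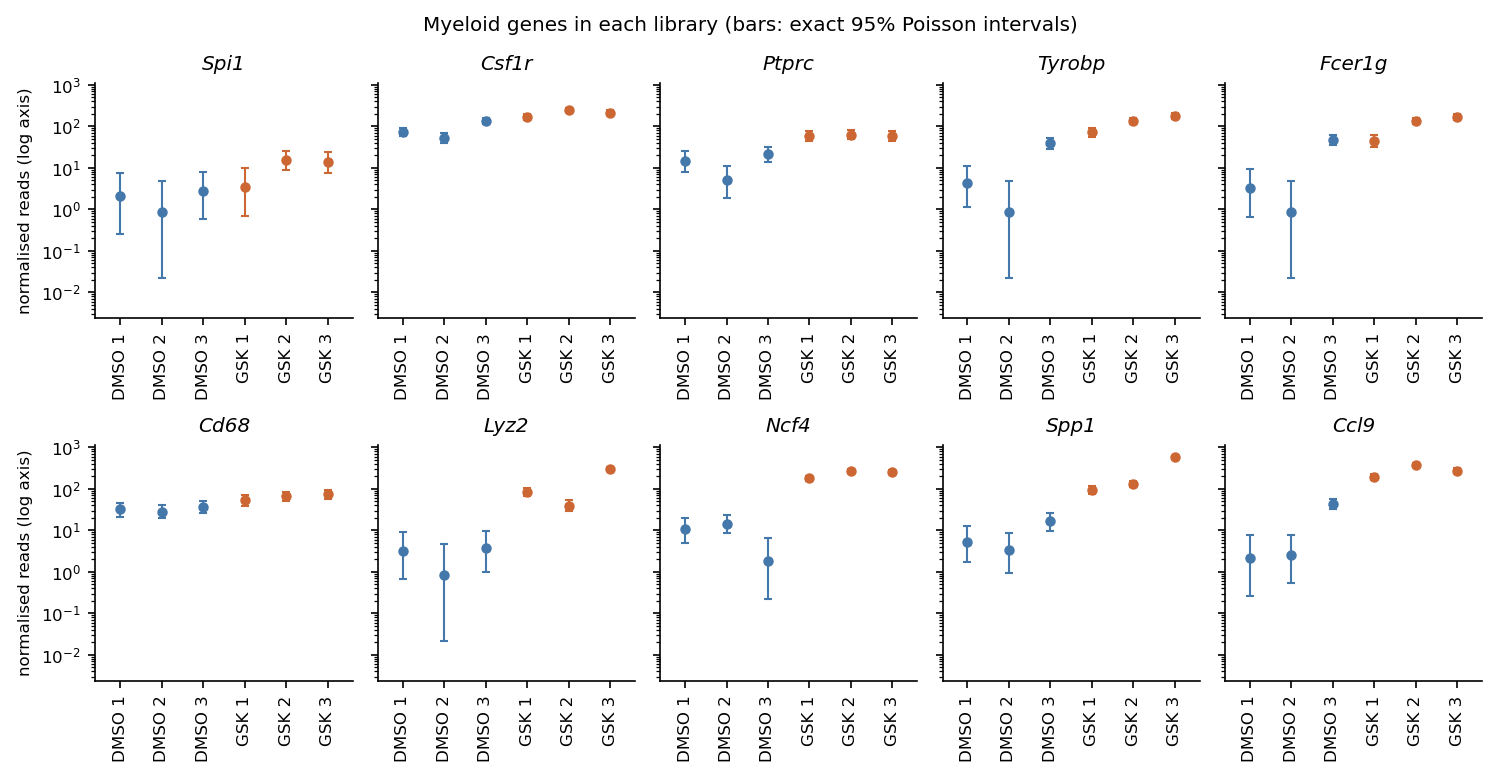
Normalised reads of the 10 myeloid genes in each of the 6 libraries, on a log axis, with exact Poisson intervals at the 95% level as bars (counting error only). The GSK values of 9 genes lie above all their DMSO values, and those of Fcer1g overlap at DMSO 3 and GSK 1.

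The 10 genes summed to 151, 111 and 351 normalised reads in DMSO 1, 2 and 3 and to 952, 1468 and 2120 in GSK 1, 2 and 3. All GSK values lay above all DMSO values for 9 of the 10 genes. This was so for 22.8% of the 15073 genes tested, which are those whose mean over the libraries reached 10. Of the 9 myeloid genes that passed that minimum, 7 were called higher and 0 lower by limma at an adjusted p of 0.05. Over all tested genes 17.0% were called higher and 19.1% lower. The choice of the genes used this comparison, so nothing is read from these counts. In a bulk library fewer cells of a type and less RNA per cell cannot be told apart, and this holds for every difference below.

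Spi1 encodes PU.1, the transcription factor that binds the regulatory regions of most macrophage genes. It lies on chromosome 2 (91082390 to 91115756, GRCm38). Spi1 was the least abundant of the 10 genes, with 2.12, 0.859 and 2.79 normalised reads in DMSO 1, 2 and 3 and 3.41, 15.6 and 13.8 in GSK 1, 2 and 3. These values come from 1 to 3 reads in each control and from 3, 17 and 13 reads in the GSK libraries. Its mean of 6.43 lay under the minimum for the test. GSK 2 and GSK 3 stood above every control, while GSK 1 exceeded DMSO 3 by less than the counting error, with intervals of 0.704 to 9.98 and 0.575 to 8.15. The mean went from 1.92 ± 0.98 to 10.9 ± 6.58 (SD, n = 3), a difference of 1.87 on the log2(value + 1) scale used throughout, or 2.09 without DMSO 3.

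Because PU.1 binds a short purine-rich core, the 250 bases before the transcription starts of some myeloid genes were searched for GAGGAA on both strands. The search used RefSeq promoter sequences (GRCm38.p6) of 6 of the 10 genes, Ptprc, Fcer1g, Spp1, Lyz2, Cd68 and Ccl9, in 8 windows. Spi1, Csf1r, Tyrobp and Ncf4 were left out of the search, so the counts below do not describe all members. The 8 windows are a partial set, and nothing is read from how their counts compare with those of all genes. The core occurred in 3 of the 8 windows and in 23.3% of the 32851 windows of all genes. The longer form GAGGAAGT, which contains the core, occurred in 1 of 8 against 2.44%, and the C/EBP motif TTGCNNAA in 2 of 8 against 9.56%. The 3 windows with the core are shown with that of Ccl9, which has none of the 3 motifs, and the capitals mark GAGGAA. A match is a description of these letters, and binding was not measured. In order they are Ptprc (chr1:138175306-138175555, minus strand), Spp1 (chr5:104434861-104435110, plus strand), Cd68 (chr11:69666171-69666420, minus strand) and Ccl9 (chr11:83578637-83578886, minus strand), each written 5′ to 3′ and ending at the base before the start.
Ptprc: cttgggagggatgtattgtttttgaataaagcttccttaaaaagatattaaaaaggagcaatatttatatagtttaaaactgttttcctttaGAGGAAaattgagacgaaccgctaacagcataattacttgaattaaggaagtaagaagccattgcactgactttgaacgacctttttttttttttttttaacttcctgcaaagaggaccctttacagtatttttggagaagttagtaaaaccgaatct
Spp1: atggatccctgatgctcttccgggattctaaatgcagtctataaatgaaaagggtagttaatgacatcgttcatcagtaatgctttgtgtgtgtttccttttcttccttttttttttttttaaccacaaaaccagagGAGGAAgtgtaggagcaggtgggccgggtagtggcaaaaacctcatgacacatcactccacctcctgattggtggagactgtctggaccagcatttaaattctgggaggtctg
Cd68: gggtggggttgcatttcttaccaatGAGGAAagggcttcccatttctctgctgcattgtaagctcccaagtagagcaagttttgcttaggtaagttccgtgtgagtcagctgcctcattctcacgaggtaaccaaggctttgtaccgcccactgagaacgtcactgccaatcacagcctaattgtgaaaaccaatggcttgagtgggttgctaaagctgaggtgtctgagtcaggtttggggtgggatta
Ccl9: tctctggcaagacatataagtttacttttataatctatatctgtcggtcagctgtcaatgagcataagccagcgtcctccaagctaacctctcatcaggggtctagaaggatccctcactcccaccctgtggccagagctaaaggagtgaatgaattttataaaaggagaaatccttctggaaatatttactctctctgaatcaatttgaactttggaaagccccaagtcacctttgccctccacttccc
In these windows the core began 158 bases before the start in Ptprc, 113 bases in Spp1 and 225 bases in Cd68. The longer form was the one in Spp1. The C/EBP motif stood nearer the start in Cd68, with its first base 43 bases before it, and the other match was in a second window of Spp1, at its other start.

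Ptprc encodes CD45, the tyrosine phosphatase carried by all white blood cells, and lies on chromosome 1 (138062861 to 138175708). It had 14.9, 5.16 and 21.4 normalised reads in the controls and 59.2, 63.4 and 58.4 in the GSK libraries. The GSK libraries were alike, and the controls lay below them without overlap. Ptprc thus went from a mean of 13.8 ± 8.16 to 60.3 ± 2.71 (SD, n = 3), with a log2 difference of 2.24, or 2.63 without DMSO 3. Its spread over the GSK libraries, an SD of 0.06 on the log2 scale, was the smallest of the 10 genes.

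Csf1r encodes the receptor of the growth factors CSF1 and IL-34 and lies on chromosome 18 (61100598 to 61132149). It had the highest control values of the 10 genes, 73.3, 53.3 and 136.6 normalised reads, against 167, 244 and 215 in the GSK libraries. The groups did not overlap, but DMSO 3 came close to GSK 1. Its mean level went from 87.7 ± 43.5 to 209 ± 39.0 (SD, n = 3), a log2 difference of 1.34, or 1.71 without DMSO 3. The 3′ end of Csf1r shares 873 exonic bases with Hmgxb3, which is transcribed from the opposite strand at 413, 488 and 490 reads in the controls and 410, 342 and 276 in the GSK libraries. Strand is not marked by Smart-seq2, and reads of the shared bases cannot be told apart, and the part of Hmgxb3 in the level of Csf1r was not tested.

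Of 11 genes for the other growth factors and growth factor receptors of myeloid cells, including the ligands of Csf1r, 6 were tested. Among these 2 were called higher and 0 lower (median log2 difference 0.73), and without DMSO 3 the count was 3 higher (median 0.77). Csf2ra and Csf2rb, the subunits of the GM-CSF receptor, rose by 1.22 (SE 0.203, adjusted p = 9.11e-05) and 2.20 (SE 0.419, adjusted p = 0.0011). Csf1, the ligand of Csf1r, had 76.6 ± 22.8 normalised reads in the controls and 87.1 ± 7.0 with the inhibitor (SD, n = 3, adjusted p = 0.455). Il34, the other ligand, was below the minimum, at 6.30 ± 0.254 and 3.70 ± 1.25.

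Tyrobp and Fcer1g encode DAP12 and the Fc receptor gamma chain, small adaptors with an ITAM (a tyrosine motif that recruits kinases) that carry signals from receptors such as TREM2 and the Fc receptors. Tyrobp (chromosome 7, 30413760 to 30417585) had 4.25, 0.859 and 40.0 normalised reads in the controls and 72.8, 134 and 176 in the GSK libraries. Fcer1g (chromosome 1, 171229572 to 171234365) had 3.19, 0.859 and 47.4 in the controls and 44.4, 136 and 171 in the GSK libraries. In both genes DMSO 1 and DMSO 2 held only 1 to 4 reads, while DMSO 3 held 43 and 51 reads. DMSO 3 exceeded GSK 1 for Fcer1g, the only one of the 10 genes whose groups overlapped, and their intervals of 35.3 to 62.3 and 31.6 to 60.7 covered each other.

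The log2 difference was 4.04 for Tyrobp and 3.82 for Fcer1g with all libraries. Without DMSO 3 it was 5.27 and 5.20. Their profiles over the 6 libraries were the most alike of all pairs of the tested members. After each gene was centred on its own mean, the root mean square (RMS) difference was 0.303 on the log2 scale, and that between Tyrobp and Ncf4 was 2.11.

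Among the partners of these adaptors, 6 of 9 tested genes of ITAM and Fc receptor signalling were called higher and 0 lower, with a median log2 difference of 1.40 (1.65 without DMSO 3) against 0.01 over all tested genes. Fcgr1, the high-affinity receptor for immunoglobulin G, rose from 8.43 ± 5.12 to 76.8 ± 27.2 normalised reads (SD, n = 3), a log2 change of 3.20 (SE 0.433, adjusted p = 2.1e-05). Fcgr3, a low-affinity receptor, rose by 3.18 (SE 0.666, adjusted p = 0.00239). Syk, the kinase that binds the phosphorylated ITAM, had 12.3 ± 3.91 and 19.4 ± 3.02 normalised reads and was not called (adjusted p = 0.199). The remaining 14 of the 23 genes found had means under 10.

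Cd68 encodes a heavily glycosylated protein of late endosomes and lysosomes and lies on chromosome 11 (69664213 to 69666153). It had 31.9, 28.4 and 37.2 normalised reads in the controls and 53.5, 66.2 and 74.3 in the GSK libraries. The groups did not overlap, and DMSO 3 lay nearer to the other controls than for any other member. Mean levels of Cd68 were 32.5 ± 4.44 and 64.6 ± 10.48 (SD, n = 3), and the log2 difference of 0.97, or 1.07 without DMSO 3, was the smallest of the 10 genes.

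The profile of Cd68 was nearest to that of Ctsb, the lysosomal protease cathepsin B, with an RMS difference of 0.051. Tax1bp3 (0.0564), Tapbp (0.0575), Odad3 (0.0627) and Atraid (0.0633) were almost as near, so the likeness does not single out lysosomal genes. This search, like those for the other single genes except Ccl9, was made after the values were seen. Of 17 lysosomal genes that neural cells also use, 15 were called higher and 0 lower, with a median log2 difference of 0.74 (14 and 0.82 without DMSO 3). Ctsb rose from 1163 ± 167 to 2325 ± 354 normalised reads (SD, n = 3), by 1.00 on the log2 scale (SE 0.144, adjusted p = 1.89e-05), and Ctsd by 1.27 (SE 0.129, adjusted p = 1.93e-07). Which cells gave the Cd68 reads was not tested.

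Lyz2 encodes the lysozyme of macrophages and neutrophils and lies on chromosome 10 (117277331 to 117282321). It had 3.19, 0.859 and 3.72 normalised reads in the controls and 85.3, 39.5 and 303 in the GSK libraries. Over the 3 controls these are 3, 1 and 4 reads, so all controls were near the floor, DMSO 3 included. GSK 3 held most of the signal, 2.36 above the mean of GSK 1 and GSK 2 on the log2 scale. Group means were 2.59 ± 1.52 and 143 ± 141 (SD, n = 3), with a log2 difference of 4.94, or 5.19 without DMSO 3. Its near-identical neighbour Lyz1, with which reads could be shared, had 0 to 4.24 normalised reads.

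Ncf4 encodes p40phox, a cytosolic subunit of the phagocyte NADPH oxidase, which makes superoxide, and lies on chromosome 15 (78244801 to 78262580). It had 10.6, 14.6 and 1.86 normalised reads in the controls and 179, 269 and 254 in the GSK libraries. The groups lay far apart, and Ncf4 was the only one of the 10 genes that was lowest in DMSO 3, where it had 2 reads. The mean went from 9.03 ± 6.52 to 234 ± 48.4 (SD, n = 3), with a log2 difference of 4.85, or 4.10 without DMSO 3.

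The profile of Ncf4 lay far from those of all other tested members, with RMS differences from 1.40 (Lyz2) to 2.27 (Fcer1g). The genes nearest to it were those of primitive red blood cells. The embryonic beta globin Hbb-y differed by 0.18, the alpha globins Hba-a1 and Hba-x by 0.245 and 0.322, the erythroid repressor Gfi1b by 0.343 and the embryonic globin Hbb-bh1 by 0.367. These globins had the same low value in DMSO 3, as Hbb-y shows with 7729, 10842 and 1350 normalised reads in the controls against 104998, 151017 and 148260 in the GSK libraries. Cybb, the oxidase subunit that works with Ncf4 in phagocytes, had 7.44, 1.72 and 0.929 normalised reads in the controls and 52.3, 40.4 and 81.7 in the GSK libraries. Its lowest value was also in DMSO 3, but that is a single read, and DMSO 2 was near the floor too. The order of these controls therefore lies within the counting error.

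**Figure D2:**
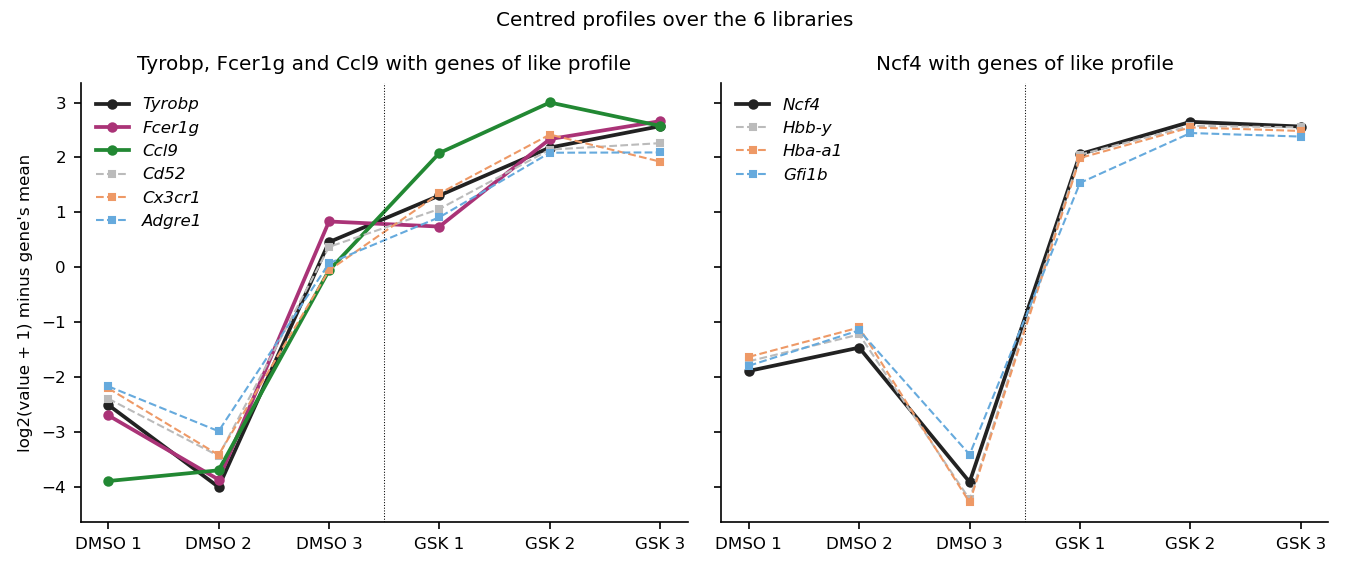
Profiles over the 6 libraries as log2(value + 1) minus the mean of each gene; the lines only join the points of a gene. In the left plot Tyrobp, Fcer1g and Ccl9 are highest of the controls in DMSO 3, as are Cd52, Cx3cr1 and Adgre1, while in the right plot Ncf4 is lowest there, as are Hbb-y, Hba-a1 and Gfi1b.

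Of the 13 tested genes of red blood cells, 12 were called higher and 0 lower, with a median log2 difference of 4.09 (13 and 3.21 without DMSO 3). The number called higher was 5 without DMSO 1, 5 without GSK 1, 4 without GSK 2, 4 without GSK 3 and 5 with the replicate number as a block. Their summed level was 2509 to 21157 in DMSO and 188029 to 278583 in GSK libraries, so it moved with the same contrast as the myeloid genes. The call for Hbb-y (log2 change 4.78, SE 0.917, adjusted p = 0.0192) was lost without GSK 2 (adjusted p = 0.0752) or GSK 3 (0.0688). Over all alternatives its adjusted p ran from 7.24e-11 to 0.0752. The part of red blood cells in the level of Ncf4 was not tested.

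Other subunits of the oxidase were compared with Ncf4. Cybb, the catalytic subunit, rose from 3.36 ± 3.55 to 58.2 ± 21.2 normalised reads (SD, n = 3), a log2 change of 4.004 (SE 0.5, adjusted p = 3.32e-06). The cytosolic subunit Ncf1 rose by 1.50 (SE 0.403, adjusted p = 0.00621). Cyba, the small membrane subunit that many tissues express, fell by 0.72 (SE 0.193, adjusted p = 0.00638), and this call was lost without DMSO 3 (adjusted p = 0.0576, range over the alternatives 0.00208 to 0.0576).

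Spp1 encodes osteopontin, a secreted matrix protein of phagocytes, bone and some other tissues, and lies on chromosome 5 (104435118 to 104441050). It had 5.31, 3.44 and 16.7 normalised reads in the controls and 92.2, 129 and 578 in the GSK libraries. GSK 3 again held most of the signal, 2.40 above the other GSK libraries on the log2 scale, as for Lyz2. The mean went from 8.49 ± 7.19 to 266 ± 271 (SD, n = 3), with a log2 difference of 4.59, or 5.18 without DMSO 3. Spp1 shares 309 exonic bases with the annotated locus Gm42793 on the same strand, and reads there cannot be told apart. The profiles of Spp1 and Lyz2 differed by an RMS of 0.616. The other members did not stand out in GSK 3 in this way, with differences from GSK 1 and GSK 2 of -0.07 (Ptprc) to 1.12 (Fcer1g).

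The receptors of osteopontin, integrins and CD44, did not move together. Of 10 listed 9 were tested, 1 was called higher and 1 lower, with a median log2 difference of -0.10 (0 higher, 1 lower and -0.08 without DMSO 3). Without GSK 1 there were 3 lower. The integrin subunit Itga8 fell by 1.51 (SE 0.239, adjusted p = 5.34e-05). Itgb5 rose by 0.52 (SE 0.185, adjusted p = 0.0322), a call lost without DMSO 2 (adjusted p = 0.179), DMSO 3 (0.0507) or GSK 2 (0.151), with a range of 0.0258 to 0.179 over the alternatives. Cd44 had 19.3 ± 7.19 and 30.6 ± 8.15 normalised reads (SD, n = 3, adjusted p = 0.135).

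Ccl9 encodes a chemokine, also known as MIP-1 gamma, that attracts myeloid cells through the receptor CCR1, and lies on chromosome 11 (83572919 to 83578636). It had 2.12, 2.58 and 43.7 normalised reads in the controls and 196, 371 and 276 in the GSK libraries. DMSO 1 and DMSO 2 held 2 and 3 reads, DMSO 3 held 47, and the lowest GSK library held 172. The mean went from 16.1 ± 23.9 to 281 ± 87.9 (SD, n = 3), with a log2 difference of 5.10, the largest of the 10 genes, and 6.35 without DMSO 3.

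The genes nearest to Ccl9 over the 6 libraries were Ccl3, at an RMS difference of 0.482, Trem2 at 0.649, the fractalkine receptor Cx3cr1 at 0.841, the leukocyte antigen Cd52 at 0.854 and the immunoglobulin heavy chain gene Ighm at 0.933. Ccl3, a chemokine that also acts on CCR1, had 0, 0 and 12.1 normalised reads in the controls and 64.9, 126 and 35.02 in the GSK libraries. DMSO 3 was the only control with a read of Ccl3 or of Trem2. Against the mean profile of the other 8 tested members the nearest genes were the interferon-induced Rsad2 at 0.321, Fcgr1 at 0.338, Slfn2 at 0.342, Vsir at 0.378 and the long non-coding RNA BE692007 at 0.426.

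Of 24 other chemokine genes 8 were tested, 3 were called higher and 2 lower, with a median log2 difference of 1.58. Without DMSO 3 there were 3 higher and 1 lower, and the median was 0.80. The 3 that rose were Ccl3, Ccl4 and Ccl5, which lie near Ccl9 on chromosome 11. Ccl4 rose from 1.19 ± 1.03 to 57.9 ± 44.9 normalised reads (SD, n = 3), by 4.63 on the log2 scale (SE 0.576, adjusted p = 2.89e-06), and Ccl5 by 3.18 (SE 0.531, adjusted p = 9.79e-05). Ccl3 rose by 4.83 (SE 1.1, adjusted p = 0.015), but the call was lost without DMSO 1 (adjusted p = 0.0941), DMSO 2 (0.105) or GSK 1 (0.0543), and its range over the alternatives was 3.81e-08 to 0.105. Cxcl12 and Cx3cl1, chemokines that non-blood cells make, fell by 0.60 and 0.80 (adjusted p = 0.00169 and 0.0261). The call of Cx3cl1 was lost without DMSO 2 (adjusted p = 0.087), DMSO 3 (0.0767), GSK 2 (0.109) or GSK 3 (0.071), with a range of 0.00533 to 0.109.

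Ccr1, the receptor of Ccl9, lay under the minimum mean of the main test, with 0, 0.859 and 1.86 normalised reads in the controls and 17.1, 11.0 and 6.37 in the GSK libraries. With no minimum its adjusted p by limma was 0.00048. Of 12 chemokine receptor genes 3 were tested (median log2 difference 0.82, or 0.76 without DMSO 3), and without DMSO 1 the number called higher was 2 rather than 1. Ackr3, a scavenging receptor of CXCL12, rose by 0.82 (adjusted p = 8.04e-05), and Cxcr4 fell by 0.63 (adjusted p = 0.0284). The Cxcr4 call was lost without DMSO 2 (adjusted p = 0.121), DMSO 3 (0.0797), GSK 2 (0.0661) or GSK 3 (0.0525), with a range of 0.0194 to 0.121.

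Per kilobase of exon the order of the 10 genes in the GSK libraries was Tyrobp (191 ± 77.9 normalised reads per kb, SD, n = 3), Spp1 (162 ± 164), Fcer1g (134 ± 74.7), Ncf4 (116 ± 24.0), Lyz2 (108 ± 107) and Ccl9 (92.3 ± 28.9). Below them came Cd68 (51.4 ± 8.34), Csf1r (36.2 ± 6.75), Spi1 (4.06 ± 2.44) and Ptprc (3.29 ± 0.148). Neighbours among the first 6 genes differed by less than their spread, as did Spi1 and Ptprc. In the DMSO libraries Cd68 (25.8 ± 3.53), Tyrobp (22.5 ± 32.5), Fcer1g (19.6 ± 30.0) and Csf1r (15.2 ± 7.53) led, with neighbours closer than their spread, and the remaining members lay at 0.714 to 5.30 per kb.

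**Figure D3:**
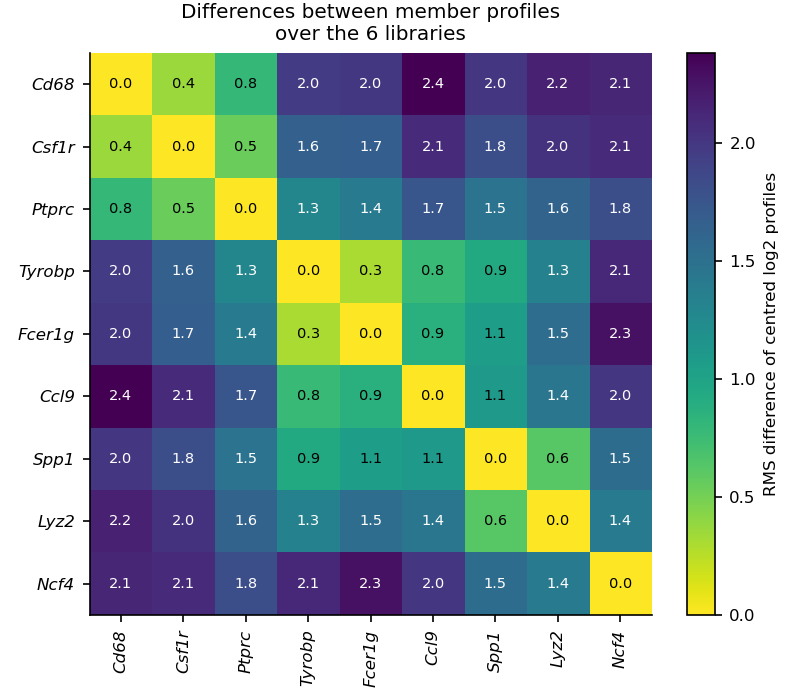
Root mean square difference between the centred log2(value + 1) profiles of the 9 tested members over the 6 libraries, with small differences in yellow and large ones in purple. Cd68, Csf1r and Ptprc form a block of like profiles, as do Tyrobp, Fcer1g and Ccl9, and Spp1 with Lyz2, while Ncf4 is no nearer than 1.40 to any other member.

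The members fell into several profiles over the libraries. Cd68, Csf1r and Ptprc had at least 6 reads in every control and RMS differences of 0.355 to 0.794 from each other. Tyrobp, Fcer1g and Ccl9 were near the floor in DMSO 1 and DMSO 2 and far above it in DMSO 3, with differences of 0.303 to 0.867. Lyz2 and Spp1 were alike in their high values in GSK 3. GSK 1 was the lowest GSK library for 8 of the 10 genes, and DMSO 2 the lowest control for 8. Over all 15073 tested genes GSK 1 was the lowest GSK library for 6881, a smaller share than among the members. The share for DMSO 2 over all genes was not counted. The points of these comparisons share their libraries and depths, so no test was made of them.

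**Figure D4:**
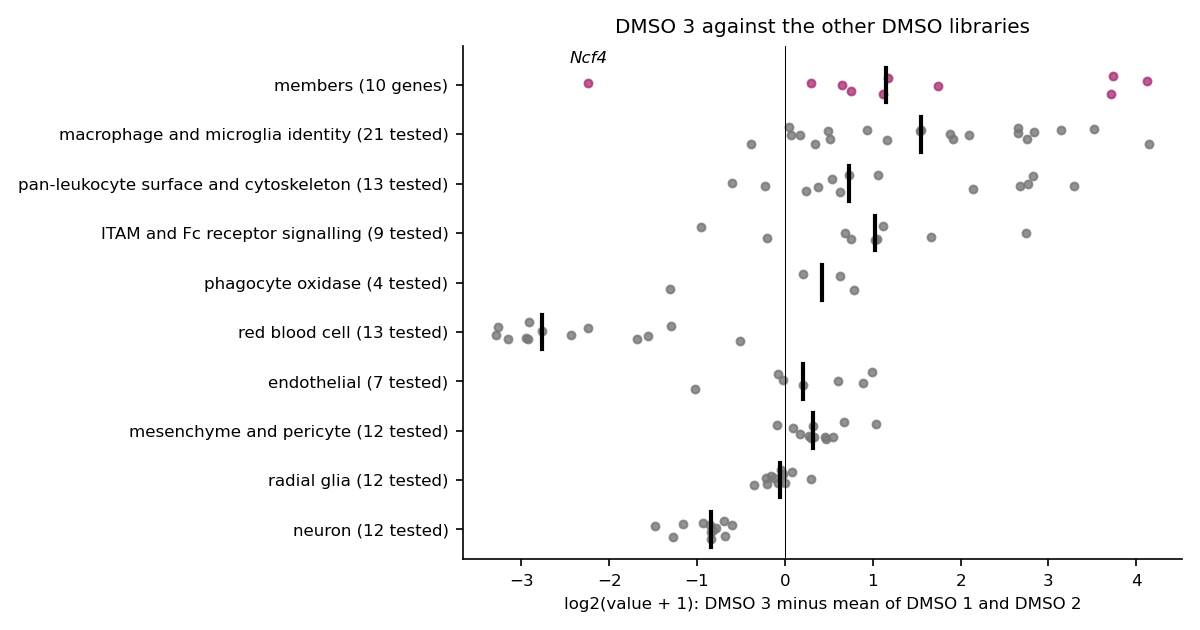
Difference in log2(value + 1) between DMSO 3 and the mean of DMSO 1 and DMSO 2 for each gene (points) of the members and of 9 gene lists, with the median as a bar. Of the members only Ncf4 lies below 0, the macrophage list has a median of 1.55, and the red blood cell and neuron lists have medians of -2.76 and -0.84.

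Genes of the same cell type outside the 10 were counted to describe the company of the members. Of 30 genes of macrophage and microglia identity 21 were tested, 10 were called higher and 1 lower, with a median log2 difference of 2.00 (2.59 without DMSO 3, where 13 were called higher and 1 lower). Of those tested, 18 were highest of the controls in DMSO 3, against 4946 of all 15073 tested genes. Cd14, a receptor for bacterial lipopolysaccharide, rose from 6.79 ± 6.29 to 49.3 ± 21.4 normalised reads (SD, n = 3), by 2.89 on the log2 scale (SE 0.519, adjusted p = 0.000368) and Itgam, the integrin CD11b, by 2.04 (SE 0.468, adjusted p = 0.00188). Sall1 fell by 2.05 (SE 0.137, adjusted p = 8.22e-10), and this transcription factor is known from microglia but also from neural progenitors.

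The genes Cx3cr1, Trem2, Adgre1 and C1qa to C1qc are named after their values were seen, because they are defining markers. Adgre1, the antigen F4/80, had 5.31, 2.58 and 28.8 normalised reads in the controls and 52.3, 119 and 120 in the GSK libraries. Cx3cr1 (log2 change 3.79, adjusted p = 0.0265), Trem2 (3.85, adjusted p = 0.0262) and Adgre1 (3.39, adjusted p = 0.0286) were called with all libraries. Each of these calls was lost when DMSO 1 or any one GSK library was left out, with adjusted p of up to 0.118, 0.134 and 0.128, and that of Trem2 also without DMSO 2 (0.143). The call of Cx3cr1 was lost with the replicate block as well (adjusted p = 0.0503). The range over all alternatives was 1.03e-07 to 0.118 for Cx3cr1, 1.53e-09 to 0.306 for Trem2 and 3.4e-07 to 0.128 for Adgre1. Of the complement genes, C1qc rose by 2.70 (adjusted p = 0.0031), while C1qa and C1qb had log2 differences of 3.86 and 4.36 and were not called (adjusted p = 0.0755 and 0.115). By limma C1qa was called without DMSO 3 (adjusted p = 0.00246) and with equal library totals (0.0365). The count tests edgeR (adjusted p = 0.000246) and DESeq2 (0.0141) also called C1qa, and edgeR called C1qb (0.00016). The ranges over the alternatives were 0.000246 to 0.201 for C1qa and 0.00016 to 0.261 for C1qb. Markers of settled microglia and of border macrophages differed in level. P2ry12 had 1.72 to 9.55 and Lyve1 0 to 5.69 normalised reads over the 6 libraries. Other genes of the list were higher, with Tmem119 at 103 to 145, Olfml3 at 319 to 410 and Stab1 at 89.9 to 151. Which cells gave these reads was not tested.

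**Figure D5:**
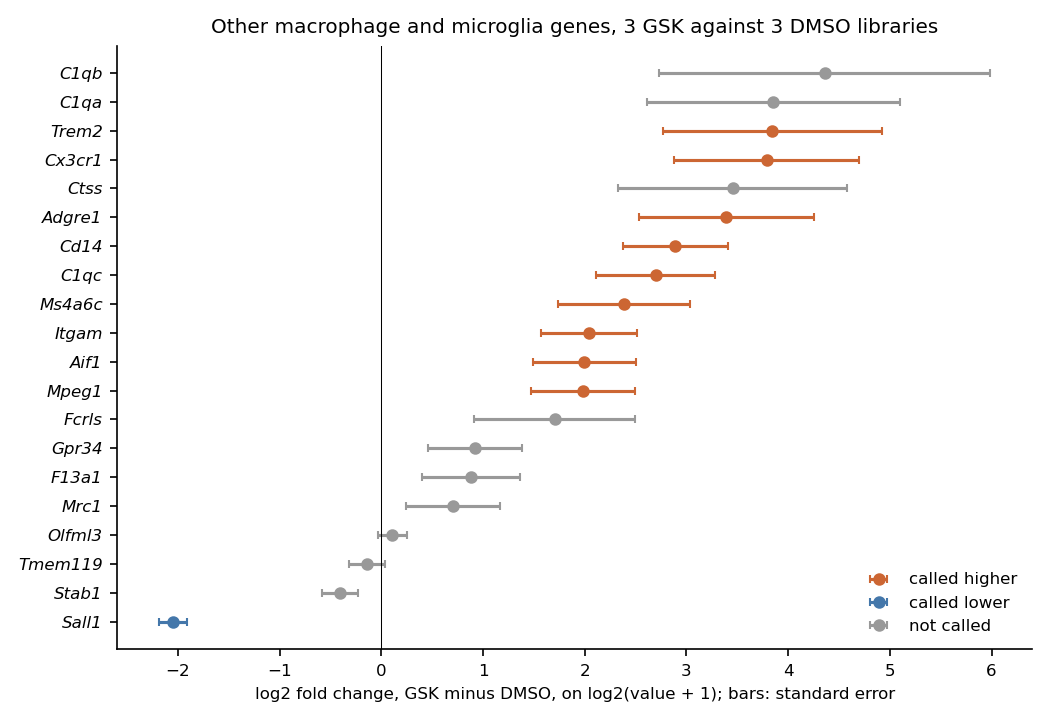
Log2 differences between 3 GSK and 3 DMSO libraries for tested genes of macrophage and microglia identity outside the 10 members (1 of the 21 is not shown), with standard errors as bars. The genes called higher that are shown lie between 1.98 and 3.85, Sall1 alone is called lower at -2.05, and C1qb, C1qa and Ctss have large differences with wide errors.

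Of 18 genes of white blood cells in general 13 were tested, 7 were called higher and 0 lower (median log2 difference 2.10, or 2.23 without DMSO 3). The count was 3 without DMSO 1, 4 without GSK 2, 4 without GSK 3 and 8 without DMSO 3. Evi2a rose from 6.92 ± 1.27 to 32.7 ± 2.02 normalised reads (SD, n = 3; log2 change 2.10, SE 0.369, adjusted p = 0.00016), and Hcls1, a cytoskeletal adaptor of blood cells, by 2.40 (SE 0.506, adjusted p = 0.000948). Of 26 transcription factors of blood cells 17 were tested, of which 12 were called higher and 2 lower, with a median of 1.32 (12, 2 and 1.42 without DMSO 3). They included the macrophage factor Irf8 (1.60, adjusted p = 0.00298), but also the erythroid factor Gata1 (3.27, adjusted p = 2.15e-08). DMSO 3 was the lowest control for 9 of the 17 and the highest for 6.

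Most genes of granulocytes, lymphocytes, mast cells and megakaryocytes had means under 10. Of 16 genes of neutrophil and monocyte granules 1 was tested, Prtn3, which had 30.7 to 39.5 normalised reads in the controls and 68.3 to 92.3 in the GSK libraries and rose by 1.17 on the log2 scale (SE 0.233, adjusted p = 0.000553). The neutrophil genes S100a8, S100a9 and Ly6g had 0 to 5.58 normalised reads, and the 16 genes summed to 53.1 to 63.2 in DMSO and 90.0 to 110 in GSK libraries. Of 16 lymphocyte genes 1 was tested, Lck, which had 48.9 to 89.1 normalised reads and was not called (adjusted p = 0.995), and the T cell gene Cd3e had 0 to 6.83. Of 16 genes of mast cells and megakaryocytes 2 were tested, and Kit, which other cells also express, fell by 0.63 (adjusted p = 0.00427). These 16 summed to 220 to 350 in DMSO and 188 to 343 in GSK libraries. The megakaryocyte chemokine Pf4, counted with the chemokines, had 3.19, 74.8 and 0 normalised reads in the controls and 313, 2.76 and 30.8 in the GSK libraries (adjusted p = 0.545), with DMSO 2 and GSK 1 highest. Of 9 genes of antigen presentation on MHC class II 4 were tested, and Cd86, a costimulatory molecule of antigen-presenting cells, was the 1 called (log2 change 2.71, SE 0.578, adjusted p = 0.00104). The lysozyme and oxidase members are shared by macrophages and neutrophils, and the part of either cell in their levels was not tested.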

How the data were processed

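The samples were 6 bulk Smart-seq2 libraries of sorted cultured cells, 3 controls with DMSO and 3 with the inhibitor. Deposited signal values were made by the authors and are normalised read counts, 1 value per gene and library. The submitters' processing notes name STAR, DESeq, GRCm38 and mm10. Not given in the sources used here are the read counter, annotation release and strand setting. In every library 100% of values were whole multiples of the value of 1 read within 0.01, so reads were recovered. Coordinates and exon lengths came from GENCODE on GRCm38, matched by identifier.

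limma 3.58.1 (R 4.3.3) was fitted to log2(value + 1) of 15073 genes (mean of 10 or more), with trended and robust priors, and adjusted by Benjamini-Hochberg at 0.05. The script was tested on simulated data. The log2 scale with a pseudocount of 1 understates the change of low genes. The members and the 21 gene lists were chosen with earlier results of these data known. Named were all members, up to 4 called genes per list by smallest adjusted p and up to 3 more by mean, of which some are not printed, and the 5 genes nearest to Ccl9 and to the mean of the other tested members. Genes named after their values were seen are Cx3cr1, Trem2, Adgre1, Mertk, Ctss, Prom1, C1qa to C1qc, Il34, Ccr1, Syk, Irf8, Cd44, P2ry12, Lyve1, the granule and lymphocyte genes at or near 0, and the genes nearest to single members other than Ccl9. Alternatives were other pseudocounts, filters and scalings, a replicate block, each library left out, and count tests on recovered reads (edgeR 4.0.16, DESeq2 1.42.0). Poisson intervals cover counting error only. The main fit used the group only, without pairing. Same-numbered libraries did not deviate together, but with so few libraries this cannot show whether they were prepared together. Some listed genes are not reported here.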

Additional observations from a re-analysis of the deposited data

How the results depend on the processing

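All log2 differences of the members kept their sign under the alternatives run. With a pseudocount of 10 the value was 3.19 for Lyz2 and 3.72 for Ncf4, and across settings Ccl9 ran from 3.81 to 6.35, Tyrobp from 2.72 to 5.27 and Fcer1g from 2.48 to 5.20. Spi1 was too low for most alternatives. With a minimum mean of 100 fewer genes were tested. The counts called higher were then 1 for the macrophage and microglia list, 0 for the white blood cell list and 0 for the ITAM and Fc receptor list. Of the members only Csf1r, Ncf4, Spp1 and Ccl9 reached that mean, and 4 were called higher. Over all genes 1740 were called higher and 2245 lower in that setting. The members were chosen by this comparison, so nothing is read from their count. With no filter the ITAM and Fc receptor count was 10. When each library was left out in turn, the counts ran from 7 to 13 for macrophage and microglia genes, 3 to 8 for white blood cell genes, 5 to 6 for ITAM and Fc receptor genes, 5 to 9 for the members, and 1748 to 3071 higher and 2246 to 3227 lower over all genes. The cause was not tested. With the replicate block 2662 genes were called higher and 2980 lower, against 2563 and 2883 without it, edgeR called 2500 and 2996 and DESeq2 2401 and 2728. DESeq2 called 3 chemokine genes, 1 osteopontin receptor and 1 connective tissue gene in place of 5, 2 and 3. The correlations of same-numbered libraries were 0.0131, -0.0236 and 0.0529. With so few libraries these values cannot show whether same-numbered libraries were prepared together. Among the printed genes the block also ended the calls of Ccl3 (adjusted p = 0.0962), Cx3cr1 (0.0503), Hbb-y (0.0688), Hba-a1 (0.0771), Hba-x (0.0939) and Hbb-bh1 (0.0885), lowered the red blood cell count from 12 to 5 and raised the neuronal count from 6 to 10. Control levels of Spi1, Lyz2, Tyrobp, Fcer1g and Ccl9 rest on as few as 1 to 4 reads, which limits their log2 differences.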

Other observations

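Genes for the uptake of dying cells did not move one way. Of 18 tested 5 were called higher and 6 lower, with a median log2 difference of -0.20 (5, 5 and -0.15 without DMSO 3). The number higher was 3 without DMSO 1, DMSO 2 or GSK 1. Mertk, a receptor tyrosine kinase that macrophages use for uptake, rose by 0.60 (SE 0.152, adjusted p = 0.0043). Its relatives Axl and Tyro3 fell by 0.82 (SE 0.15, adjusted p = 0.000227) and 1.11 (SE 0.153, adjusted p = 9.92e-06), and Megf10, an engulfment receptor of glia, fell by 1.83 (SE 0.169, adjusted p = 5.74e-08). Of 14 tested genes of the phagocytic and lipid-laden state, which Spp1 is often listed with, 5 were called higher and 2 lower, with a median of 0.51. Without DMSO 3 there were 8 higher and 2 lower, with a median of 0.60. Lpl, which releases fatty acids from lipoproteins, rose by 1.58 (SE 0.184, adjusted p = 1.71e-06), and Cd9, a tetraspanin, by 1.00 (SE 0.166, adjusted p = 8.74e-05).

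Other cell types of the tissue gave further values. Of 7 tested endothelial genes 0 were called by limma, edgeR or DESeq2, and 2 had an unadjusted limma p under 0.05. Of 12 genes of connective tissue and pericytes 3 were called lower and 0 higher (2 and 1 without DMSO 3, and 5 lower without GSK 1), among them Acta2, smooth muscle actin, which fell by 1.57 (SE 0.167, adjusted p = 7.69e-07). Of 12 radial glial genes 9 were called lower and 0 higher (median -1.31, and the same counts with -1.30 without DMSO 3), with Fabp7 falling by 3.78 (SE 0.158, adjusted p = 2.74e-12) and Prom1, which encodes the sorted protein CD133, by 1.01 (SE 0.136, adjusted p = 7.61e-06). Of 12 neuronal genes 6 were called higher and 1 lower (median 1.06, or 8, 1 and 0.79 without DMSO 3), with Elavl3 rising by 1.40 (SE 0.161, adjusted p = 1.56e-06).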
